A study of Mus musculus with 29 samples.

Results

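Binding of the glucocorticoid receptor (GR) in liver at 6pm was compared between mice carrying GRdim, a GR mutation known to impair receptor dimerization, and their wild-type (WT, GR+/+) littermates. The regions are all GR ChIP-seq peaks of the GRdim 6pm and WT 6pm lists, paired wherever a GRdim peak and a WT peak overlapped by at least 1 bp, together with the ChIP-exo borders around them. Overlapping peaks merged into 14667 regions, of 15329 regions in the 6 GR ChIP-seq lists of the study. The comparison rests on 4 of 29 samples: GR ChIP-seq and GR ChIP-exo, each in GRdim and in WT. The animals of these samples were untreated males of 12 weeks, backcrossed over at least 4 generations to BALB/c and kept on a 12 h light cycle, and 6pm was the start of the dark phase. Looked up at the same regions were the GR ChIP-seq lists of both genotypes at 6am, either untreated or after 24 h of subcutaneous prednisolone (a synthetic glucocorticoid, 12 mg/kg), and the C/EBPβ ChIP-seq list of untreated WT at 6pm. The labels say neither which substitution the GRdim allele carries nor how many animals gave each liver extract.

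GR is the nuclear receptor for corticosterone, the main glucocorticoid of rodents, whose blood level peaks as the dark phase begins. Bound by hormone, GR can occupy DNA as a dimer on a pair of hexamer repeats, one for each receptor, or as a monomer on a single site, and it can be tethered through another transcription factor. The GRdim mutation lies in the interface through which a pair of receptors contact each other on DNA, and it has been used to separate dimer binding from the other modes. In liver, GR sites are often shared with C/EBPβ, a factor abundant in hepatocytes. In ChIP-exo an exonuclease trims the precipitated DNA on each strand up to the bound protein, so a plus-strand and a minus-strand border enclose the protected stretch.

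Each of the 4 lists was 1 pool of 2 replicates per the labels. No replicate spread can be given, hence no p-value, and the 95% intervals cover only the counting of peaks, borders or tags. The GRdim ChIP-seq list held 7440 peaks with scores between 2.00 and 15.67 (median 2.88), and the WT list 14270 peaks with scores between 2.01 and 26.35 (median 3.36). The score is the authors' own value, its unit is unstated, and it serves only to rank and describe peaks within a list. The GRdim ChIP-exo file listed 35658 borders from a library of 43.8 M tags, with a median of 12 tags per border. The WT file listed 54636 borders from 43.1 M tags, with a median of 18 tags. Listed borders held 1.54% of the GRdim library and 3.27% of the WT library, although the libraries were of nearly equal size. A border below the authors' unstated threshold is not listed, so a missing border is a weak or absent one and not a count of 0. Peak lists and borders do not show the mutated base, so the genotype labels could not be checked against the data. In whole liver, binding in fewer cells and weaker binding in each cell cannot be told apart.

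Nearly every GRdim region was also a WT region, while about as many WT peaks lacked a GRdim partner as had one. These shares come from lists of unequal length. Cut to equal length, 74.8% of the peaks of either list were found in the other. One-to-one pairing makes that value the same in both directions, and the part of list length in the asymmetry was not tested. Pairing was one to one and gave 7043 shared regions. Absent from the other genotype were 397 GRdim peaks (5.34% of the GRdim list) and 7227 WT peaks (50.6% of the WT list). Shared peaks lay close to each other, with a median of 16 bp between the centres.

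Absence followed the score in both lists, but from very different starting points. In the highest-scoring 10% of the GRdim list, with scores of 5.16 to 15.67, 3 of 744 peaks were absent from WT (0.403%, 95% interval 0.137 to 1.18). In the highest-scoring 10% of the WT list, with scores of 7.20 to 26.35, 126 of 1427 peaks were absent from GRdim (8.83%, 7.47 to 10.4). In the lowest 10% the absent shares were 13.3% of GRdim peaks (11.1 to 15.9) and 92.1% of WT peaks (90.6 to 93.4). Most of the one-genotype peaks were therefore weak: the median score was 2.32 for GRdim-only and 2.63 for WT-only peaks. The strongest reached 7.45 among GRdim-only and 17.17 among WT-only peaks. Because the WT list was longer, a GRdim peak had more peaks to meet than a WT peak had.

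**Figure D1:**
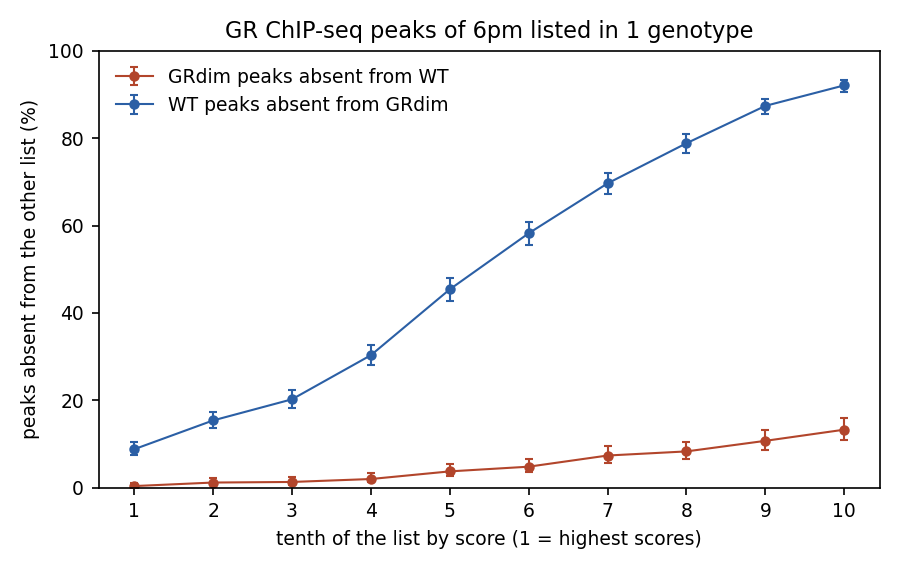
Share of peaks absent from the other genotype's 6pm list (%), in 10 equal parts of each list ordered by score (1 = highest), for GRdim peaks and WT peaks with Wilson 95% intervals that cover the counting of peaks. The GRdim points run from 0.403% in the highest part to 13.3% in the lowest, and the WT points from 8.83% to 92.1%.

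The strongest sites differed in order more than in presence. All 100 of the first 100 GRdim peaks were somewhere in the WT list, and 98 of the first 100 WT peaks were somewhere in the GRdim list. Only 41 regions were among the first 100 of both lists. The first 1000 of both lists had 567 regions in common, and the first 5000 had 3568 (71.4%).

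The 6 highest WT peaks without a GRdim peak lay at positions where the WT ChIP-exo library was also strongly marked. Positions are in mm9, counted from 1. The highest was on chromosome 17 at 28557179 to 28557378, with a WT score of 17.17. It held no listed GRdim border, against 14 WT borders with 1232 tags. Likewise, no GRdim border was listed on chromosome 17 at 81784937 to 81785136 or on chromosome 16 at 93335674 to 93335873, where the WT borders held 831 and 579 tags. The remaining 3 of the 6 were marked in GRdim at a small fraction of the WT level. On chromosome 19 at 5850164 to 5850363, the borders held 88 GRdim tags, against 861 WT tags, an RPM ratio of 0.101 (0.0798 to 0.125). On chromosome 1 at 133814369 to 133814568 they held 11 GRdim tags, against 592 WT tags. On chromosome 10 at 94780899 to 94781098 they held 26 GRdim tags, against 843 WT tags. All 6 regions held a C/EBPβ peak in WT at 6pm and were in the WT lists of 6am and of prednisolone. Of all WT-only peaks, 74.7% held a C/EBPβ peak. At the chromosome 19 region GRdim peaks were near or listed under other conditions: a GRdim 6pm peak was centred 226 bp away, and the region scored 3.04 in the GRdim 6am list and 2.42 in the GRdim prednisolone list. The regions on chromosome 17 at 28557179 and on chromosome 16 at 93335674 each scored 2.12 in the GRdim prednisolone list.

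The 6 highest GRdim peaks without a WT peak were weaker, with scores of 4.92 to 7.45, and fell into 2 kinds. At 3 of them the WT library had no listed border. On chromosome 10 at 7494141 to 7494340, 12 GRdim borders held 377 tags. On chromosome 3 at 9822080 to 9822279 they held 219 GRdim tags, and on chromosome 17 at 73228434 to 73228633 they held 100 GRdim tags. None of these 3 regions held a C/EBPβ peak in WT at 6pm, and all 3 were in the GRdim prednisolone list, with scores of 7.51, 7.84 and 3.79. The chromosome 3 region had a WT peak centred 446 bp away, and the other 2 had none within 1000 bp. The remaining 3 regions had a WT peak nearby and held WT borders. On chromosome 18 at 75662436 to 75662635 there were 184 GRdim tags, against 267 WT tags, with a WT peak centred 382 bp away. On chromosome 1 at 93333274 to 93333473 there were 81 GRdim tags, against 42 WT tags, and on chromosome 10 at 87369421 to 87369620 there were 46 GRdim tags, against 72 WT tags. The nearest WT peaks there were centred 328 and 295 bp away, and these 3 regions held a C/EBPβ peak. Of all GRdim-only peaks, 48.6% held one.

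Such near neighbours were common among GRdim-only peaks. A WT peak was centred within 1000 bp of 119 of the 397 GRdim-only peaks (29.97%), and a GRdim peak within 1000 bp of 521 of the 7227 WT-only peaks (7.21%). The difference was 22.8 points (18.4 to 27.5), in lists of unequal density. The median distance to the nearest peak of the other genotype was 4663 bp for GRdim-only and 22774 bp for WT-only peaks. Most one-genotype peaks of either kind thus had no peak of the other genotype within 1000 bp.

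The other GR lists of the study show how far a one-genotype peak followed its genotype, but these lists differ in reach. Of the shared peaks, the 6am lists held 60.4% (WT) and 41.2% (GRdim). The prednisolone lists held 40.3% (WT) and 40.6% (GRdim) of them. Of the 397 GRdim-only peaks, 123 (30.98%) were in the GRdim list of 6am or of prednisolone, and 52 (13.1%) were in a WT list of either. No other GR list held 261 of them (65.7%), from 2 of 12 in the highest-scoring 20% of the GRdim list to 145 of 179 in the lowest. In the GRdim prednisolone list were 24.2% of the GRdim-only peaks, which scored lower, and 40.7% of the shared peaks. At like scores this order did not hold. In the lowest 20% of the GRdim list the shares were 13.4% of GRdim-only and 7.87% of shared peaks. They were 24.8% and 16.2% in the 20% above it, and in each higher part the interval of the difference included 0. The GRdim 6am list differed from this in the highest 2 parts. There GRdim-only less shared was -56.0 points (-75.5 to -28.3) over 12 GRdim-only peaks and -21.8 points (-37.7 to -2.11) over 25. In each lower part the interval for GRdim 6am included 0. Of the 7227 WT-only peaks, 1741 (24.1%) were in a WT list of 6am or of prednisolone, 275 (3.81%) were in a GRdim list of either, and 5386 (74.5%) were in no other GR list, from 4.05% in the highest-scoring 20% of the WT list to 92.0% in the lowest. The WT 6am list held 19.1% of the WT-only and 60.4% of the shared peaks, which scored higher. At like scores most of this gap was gone. In 5 equal parts of the WT list from the highest, WT-only less shared was -3.54, -4.89, -5.37, 0.445 and -4.46 points. Strong WT-only peaks recurred in WT at 6am and seldom in GRdim. Among the highest-scoring 20% of the WT list, scored 5.37 and above, 346 peaks were WT-only and 2508 were shared. Of these, 92.2% of the WT-only and 95.7% of the shared peaks were listed in WT at 6am. In GRdim at 6am, 6.36% of the WT-only and 70.8% of the shared peaks were listed, and after prednisolone 3.76% and 66.3%. These strong WT sites were thus mostly absent from all 3 GRdim lists, and 31 of the 346 (8.96%) were in a GRdim list of another condition.

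At the 7043 shared regions the 2 orders of score were alike but far from identical. Spearman's rho between the GRdim score and the WT score was 0.67 across regions, given as a description, since regions share libraries and are not replicates. For each region the ranks among the shared regions were expressed in points, where 100 points is the whole order. The absolute difference had a median of 13.0 points (quartiles 5.58 and 24.7). A region stood lower in GRdim by at least 20 points in 1156 cases (16.4%) and higher in 1150 cases (16.3%), an evenness that ranks over the same regions largely impose. Shifts of at least 50 points were less even, with 220 regions (3.12%) lower and 120 (1.70%) higher in GRdim.

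**Figure D2:**
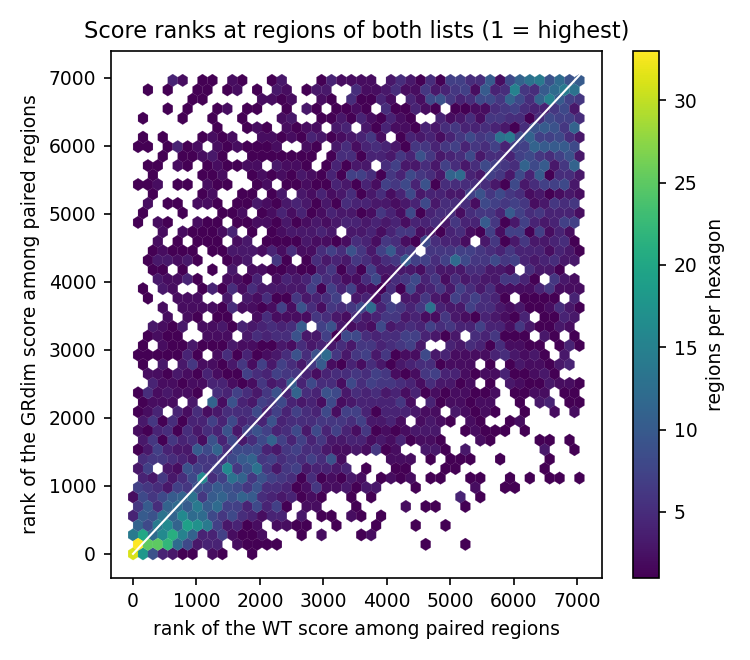
Rank of the GRdim score (vertical) against rank of the WT score (horizontal) among the 7043 shared regions, 1 = highest, with colour giving regions per hexagon and the line marking equal rank. Regions crowd along the line at the highest ranks, and the spread around it (rho = 0.67) reaches into the upper left, where strong WT sites stood low in GRdim.

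The 5 regions highest in both orders had GRdim ranks between 1 and 19, at lower ChIP-exo levels. The first lay on chromosome 7 at 71041830 to 71042029, with scores of 15.67 in GRdim and 26.16 in WT. Its borders held 829 GRdim tags, against 3613 WT tags. On chromosome 2 at 167670163 to 167670362 they held 740 GRdim tags, against 4146 WT tags, and on chromosome 3 at 51037486 to 51037685 they held 384 GRdim tags, against 1854 WT tags. On chromosome 4 the regions at 150129585 to 150129784 and 150059310 to 150059509 held 589 and 551 GRdim tags, against 2296 and 3887 WT tags. The log2 ratio of GRdim over WT RPM lay between -2.84 and -1.99 at these 5 regions. All 5 held C/EBPβ, as did 91.9% of all shared regions, and were in all 6 GR lists.

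Regions that stood far lower in the GRdim order included strong WT sites at the very edge of the GRdim list. On chromosome 8 at 10939951 to 10940150 the score was 2.04 in GRdim and 13.08 in WT, with no listed GRdim border, against 438 WT tags. On chromosome 18 at 46810328 to 46810527 the score was 2.11 in GRdim and 13.70 in WT, with 76 GRdim tags, against 866 WT tags. The other 3 of the 5 largest losses of rank, on chromosome 4 at 44079908 to 44080107 and 134802442 to 134802641, and likewise chromosome 18 at 33593693 to 33593892, scored 2.00 in GRdim and 8.95 to 9.54 in WT. They held 13, 22 and 7 GRdim tags, against 349, 273 and 378 WT tags. These 5 losses spanned 89.1 to 93.4 points and all carried a C/EBPβ peak, as did 91.9% of all shared regions.

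The 5 largest gains of rank in GRdim were of weaker sites, with GRdim scores of 4.25 to 4.60. On chromosome 5 at 44634171 to 44634370 the score was 4.60 in GRdim and 2.05 in WT, with 75 GRdim tags, against no listed WT border. The region on chromosome 15 at 27407482 to 27407681 likewise held GRdim borders with 36 tags and no WT border. So did chromosome 10 at 41310771 to 41310970, with 52 GRdim tags. On chromosome 2 at 132480659 to 132480858 there were 33 GRdim tags, against 12 WT tags, and at 27062021 to 27062220 there were 54 GRdim tags, against 9 WT tags. With a loss counted as positive, these differences of rank lay between -84.5 and -73.4 points, and no WT 6am peak was listed at any of these 5.

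ChIP-exo, a separate library in each genotype, was then read at the same regions, as the summed RPM of borders within 100 bp of the peak centre. At most shared regions the GRdim level was lower on the RPM scale. On the scale of listed tags the direction of the median turned, but that total is itself largely peak signal. Borders of both libraries marked 5370 shared regions, 480 had a GRdim border alone, 939 a WT border alone and 254 neither. At the 5370, the median log2 ratio of GRdim over WT RPM was -0.92 (-0.95 to -0.86), a fold of 0.529, with quartiles of -1.91 and -0.05. Across all 6880 regions of any kind with borders in both libraries, 48% were at least 2-fold lower and 7.72% at least 2-fold higher in GRdim. At shared regions these shares were 47.1% and 8.34%, close to that background. The sign of the shared median depends on the scale: as a share of all listed tags it was 0.17, because the listed share of the GRdim library was the smaller. As a share of listed nuclear tags, a scale added after the data had been seen, it was 0.58. The rescalings add 1.08 and 1.50 to every log2 ratio and leave differences between regions as they are. Borders within 100 bp of a peak held 84.7% of the listed nuclear tags in GRdim and 87.7% in WT. Both rescalings thus divide by a total made largely of the peak signal, which removes a drop common to all peaks. The turned sign therefore cannot decide whether the GRdim level was lower at the peaks as a whole.

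The ratio was then set out by class. At 1401 WT-only regions with borders in both libraries the median log2 ratio was -1.11 (-1.18 to -1.02), or 0.39 on the scale of listed nuclear tags, and 53.2% by RPM were at least 2-fold lower in GRdim. The order of WT-only and shared regions turned with the setting: the WT-only median lay above the shared one with the strongest border only (-0.67 against -0.76) and, over 27 WT-only regions, with borders of at least 20 tags (-1.08 against -1.81). These ratios leave out the WT-only regions whose GRdim border was not listed. At the 109 GRdim-only regions with both borders the median was 0.10 (-0.25 to 0.60), and -0.18 (-0.33 to -0.02) with the strongest border only. Of them, 29.4% were at least 2-fold higher and 25.7% at least 2-fold lower in GRdim. Presence of a border also differed by class. A GRdim border was found at 26.6% and a WT border at 64.3% of WT-only regions, a difference of -37.8 points. At shared regions the shares were 83.1% in the GRdim library and 89.6% in the WT library, a difference of -6.52 points. At GRdim-only regions they were 59.7% in the GRdim library and 38.0% in the WT library, a difference of 21.7 points. With borders of at least 20 tags the differences were -21.7 points at WT-only and -36.8 points at shared regions, so the order of these classes turned. At GRdim-only regions the difference was then -0.504 points (-4.31 to 3.29), an interval that included 0. The GRdim-only median log2 ratio was then -1.72 over 11 regions.

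The ChIP-exo ratio followed the change of ChIP-seq rank. In 5 equal groups of shared regions, from those that gained most rank in GRdim to those that lost most, the median log2 ratio was 0.05, -0.44, -0.95, -1.39 and -2.23. On the RPM scale the ratio was below 0 at 49.2% of the regions that gained most and at 93.6% of those that lost most. Across the 5370 regions, Spearman's rho between rank loss and log2 ratio was -0.53, a description across regions of 4 lists. Among regions in the highest 20% of the WT list the steps were wider, at 0.10, -0.44, -1.13, -1.90 and -2.89. Within each genotype the score and the ChIP-exo RPM ran together, with rho of 0.74 in GRdim (5850 regions) and 0.85 in WT (6309 regions).

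**Figure D3:**
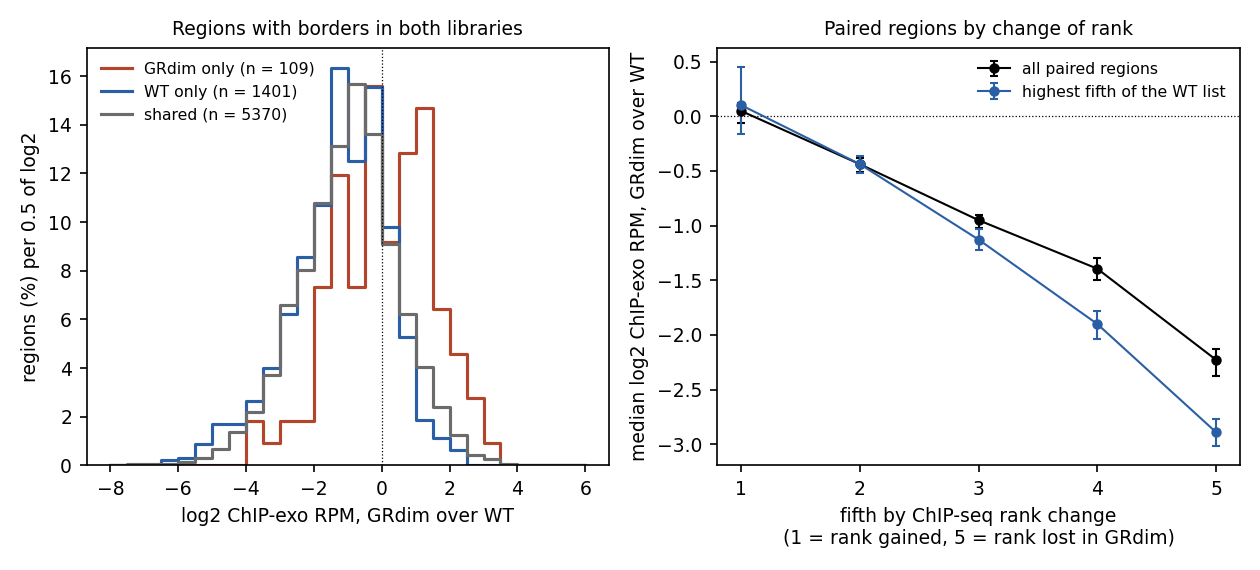
Left, distribution of the log2 ratio of ChIP-exo RPM, GRdim over WT, at GRdim-only, WT-only and shared regions with borders in both libraries, as a percent of regions per 0.5 of log2. Right, median log2 ratio with a 95% interval of the median over regions, in 5 groups by change of ChIP-seq rank, for all shared regions (0.05 in group 1 and -2.23 in group 5) and for the highest 20% of the WT list (0.10 and -2.89). On the scale of listed tags, a total made largely of peak signal, every ratio is 1.08 higher, which puts the shared median above 0.

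Single regions spanned a far wider range than these medians. Of 1756 shared regions with at least 200 tags in the libraries together and borders in both, 173 were higher in GRdim by RPM. Another 300 were at least 8-fold lower by RPM. The lowest ratio was on chromosome 2 at 167686133 to 167686332, with 9 GRdim tags, against 1458 WT tags, a log2 ratio of -7.37. Next came chromosome 2 at 25333938 to 25334137 with 8 GRdim tags, against 1092 WT tags, and chromosome 10 at 76566583 to 76566782 and 80127386 to 80127585 with 9 and 10 GRdim tags, against 1128 and 1047 WT tags. All 4 were listed peaks in GRdim, with scores of 2.21 to 3.23, against 14.03 to 17.39 in WT. By RPM the fold of WT over GRdim was 107 to 165 at these 4 regions, each with 1 GRdim border of 8 to 10 tags, below the median of that file. The log2 ratios lay between -5.39 and -4.41 with the strongest border only, and between -6.28 and -5.65 as shares of listed tags.

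The highest ratios were smaller in size. On chromosome 7 at 126990965 to 126991164 there were 238 GRdim tags, against 23 WT tags, a ratio of 10.2 (6.63 to 16.4). On chromosome 4 at 129592781 to 129592980 there were 191 GRdim tags, against 35 WT tags. On chromosome 14 at 60151929 to 60152128 there were 210 GRdim tags, against 42 WT tags, and on chromosome 1 at 13427853 to 13428052 there were 203 GRdim tags, against 45 WT tags. The GRdim tags were spread over 8 to 13 borders at these 4 regions, against 1 or 2 WT borders. With the strongest border of each library alone, the log2 ratios were 0.74, 0.86 and 0.47 on chromosomes 7, 4 and 14 and -0.19 on chromosome 1, against 3.35, 2.43, 2.30 and 2.15 with all borders.

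WT-only peaks of a given WT score differed from shared ones in the same range of score far more in the GRdim library than in the WT library. Among the highest 20% of the WT list, a GRdim border was found at 35.6% of WT-only and 94.3% of shared peaks. A WT border was found at 99.7% of WT-only and 99.8% of shared peaks, and the median WT RPM was 4.87 and 4.36. Where both libraries had borders, the median log2 ratio was -3.80 at 123 WT-only peaks and -1.38 at 2360 shared peaks. Among the lowest 20% these medians were closer, at -0.43 over 264 WT-only and -0.24 over 85 shared peaks. Presence of a GRdim border still differed there, at 19.3% of WT-only and 57.3% of shared peaks. A WT border was found at 44.6% and 50.2%.

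The distance between the strongest plus-strand and minus-strand borders was used to describe the spacing of borders around a site. It was taken at the same 2908 shared regions that had both borders in both libraries. The strongest border was picked separately on each strand, so a pair need not enclose a single bound protein. In both libraries some distances were negative, with the minus-strand border before the plus-strand border. Above 15 bp, the commonest distance was 24 bp in GRdim (51 regions) and 30 bp in WT (59 regions). Borders 29 to 31 bp apart were found at 71 regions in GRdim (2.44%) and at 154 regions in WT (5.30%), a paired difference of -2.85 points (-3.84 to -1.87). Borders 23 to 26 bp apart were found at 167 regions in GRdim (5.74%) and at 104 in WT (3.58%), a difference of 2.17 points (1.14 to 3.20). Borders 10 to 12 bp apart were also less frequent in GRdim, at 3.71% of regions, against 4.85% in WT, a difference of -1.13 points (-2.12 to -0.152). Distances of 40 to 60 bp were found at 18.2% of regions in GRdim and 19.8% in WT.

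The spacing of 29 to 31 bp seldom recurred in both libraries, while spacings of 10 to 12 and 23 to 26 bp did so more often. Only 4 regions had borders 29 to 31 bp apart in both libraries, of 71 in GRdim and 154 in WT, and 18 had borders 23 to 26 bp apart in both, of 167 in GRdim and 104 in WT. At the 154 WT regions, the GRdim distance was within 1 bp of the WT distance at 5 (3.25%) and was 23 to 26 bp at 12 (7.79%). Where the WT distance was instead 10 to 12 bp, GRdim was within 1 bp of it at 20 of 141 regions (14.2%), and where it was 23 to 26 bp at 13 of 104 (12.5%). Over all 2908 regions the share was 4.85%. The median log2 ratio of GRdim over WT RPM was lower where the WT distance was 29 to 31 bp, at -2.09. It was -1.05 at 10 to 12 bp and -0.76 at 23 to 26 bp. The part of this weaker GRdim signal in the recurrence was not tested. Single borders coincided more often: 22.8% of GRdim borders at shared regions had a WT border of the same strand within 2 bp, and 18.0% of WT borders had a GRdim one.

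**Figure D4:**
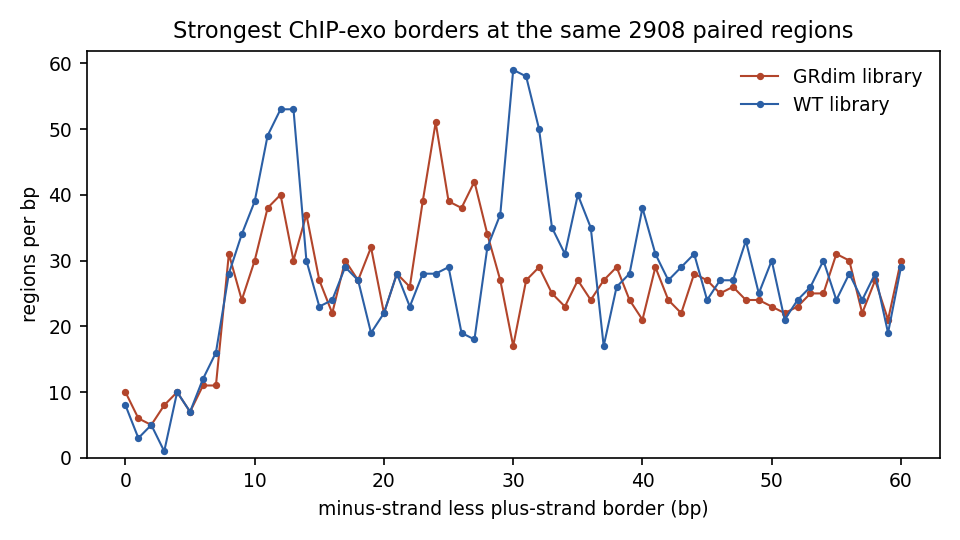
Number of regions (vertical) at each distance in bp from the strongest plus-strand to the strongest minus-strand ChIP-exo border (horizontal), in the GRdim and WT libraries at the same 2908 shared regions. Only distances of 0 to 60 bp are drawn. The GRdim line has its highest point at 24 bp with 51 regions, and the WT line at 30 bp with 59, and both have a further rise near 12 bp.

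The spacing of 29 to 31 bp in the WT library was more frequent at WT sites that the GRdim list lacked. Among WT peaks with both borders, 8.66% of 1963 WT-only peaks and 5.11% of 4524 shared peaks had it, a difference of 3.55 points (2.21 to 5.01). In the highest 20% of the WT list it was 16.9% of 338 WT-only peaks and 6.94% of 2392 shared peaks, a difference of 9.92 points (6.15 to 14.4). The difference was 6.29 points (3.79 to 9.29) in the next 20% and 3.43 points (0.948 to 6.08) in the 20% after that. In each of the 2 lowest parts of 20% the interval included 0. The spacing of 10 to 12 bp was also more frequent at WT-only peaks in the highest 20%, at 11.8% (8.81 to 15.7), against 5.94% (5.06 to 6.96) of shared peaks. In the following parts of 20% the shares were 4.83% against 4.15%, 5.61% against 2.21% and 5.61% against 3.62%. In the lowest 20% the order was the opposite, at 5.91% of WT-only peaks, against 10.3% of only 29 shared peaks. Read the other way, 74.4% of 223 peaks with borders 29 to 31 bp apart in the highest 20% were in the GRdim list. Of 2507 peaks there with another distance, 88.8% were.

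Within the shared regions the spacing ran with the change of rank as well. WT borders 29 to 31 bp apart were found at 2.89%, 3.07%, 5.13%, 4.61% and 8.39% of regions in the 5 groups from rank gained to rank lost in GRdim. For the highest 20% of the WT list the shares were 1.27%, 2.97%, 6.30%, 6.04% and 11.9%. In the GRdim library the same spacing was found at 1.37%, 2.35%, 2.07%, 2.99% and 3.15% among all shared regions. The intervals of the end groups overlapped (0.768 to 2.44 and 1.95 to 5.05). For the highest 20% of the WT list the GRdim shares were 3.45%, 2.11%, 1.97%, 2.88% and 3.02%, with no increase towards rank lost. The rank groups also differed in the other lists. From rank gained to rank lost, the GRdim 6am list held 40.1%, 48.2%, 54.8%, 39.4% and 23.5% of the regions, with the highest share in the middle group. The WT 6am list held 39.7%, 56.8%, 67.1%, 63.1% and 75.4%.

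C/EBPβ, taken from the WT list alone, was less frequent at one-genotype peaks. It was present at 48.6% of GRdim-only and 91.8% of shared peaks of the GRdim list, a difference of -43.2 points. In the WT list it was present at 74.7% of WT-only and 91.9% of shared peaks. Within the highest 20% of the WT list it was present at 75.1% of WT-only and 96.9% of shared peaks, and in the lowest 20% the 2 classes differed by 0.543 points. Conversely, 90.3% of the peaks with C/EBPβ in the highest 20% were found in GRdim, and 47.2% of those without.

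C/EBPβ and the border spacing overlapped in part. In those highest 20% of the WT list, borders 29 to 31 bp apart were found in the WT library at 7.50% of peaks with C/EBPβ and 19.1% of peaks without. Among peaks with C/EBPβ the spacing was at 17.3% of 254 WT-only peaks (13.2 to 22.5) and 6.43% of 2319 shared peaks (5.50 to 7.50). Among peaks without it, it was at 15.5% of 84 WT-only peaks (9.27 to 24.7) and 23.3% of 73 shared peaks (15.1 to 34.2), with overlapping intervals. The difference in spacing between WT-only and shared peaks thus held among peaks with C/EBPβ, which were the large majority, and among the few without it the WT-only share was the lower value. Over the whole WT list, peaks without C/EBPβ had the spacing at 12.4% of 563 WT-only and 10.2% of 266 shared peaks, the opposite order.

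**Figure D5:**
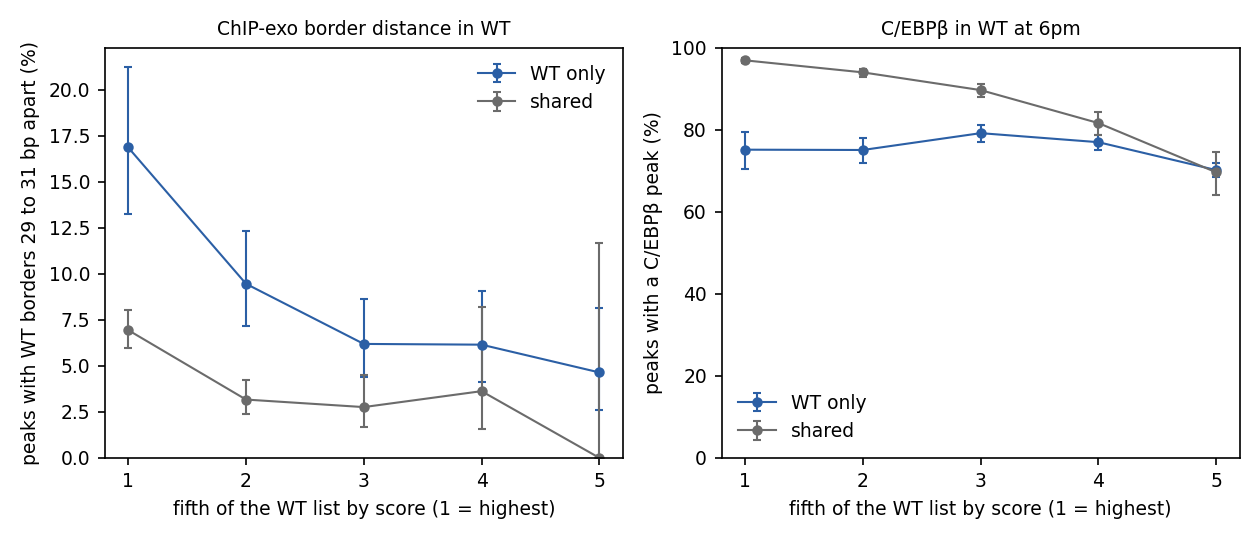
WT-only and shared peaks in 5 equal parts of the WT list ordered by score (1 = highest), with Wilson 95% intervals. Left, share of peaks whose WT borders were 29 to 31 bp apart (%), 16.9% against 6.94% in the highest part. Right, share of peaks with a C/EBPβ peak in WT at 6pm (%), 75.1% against 96.9% in the highest part, with the 2 classes close together in the lowest.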

How the data were processed

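GR ChIP-seq and ChIP-exo of livers of GRdim and WT mice at 6pm were compared. The submitters' processing notes name Bowtie, HOMER and mm9, without versions or roles, and the threshold for listing a peak or border is unstated. ChIP-seq files hold peaks of 200 bp with a score that the authors assigned, in an unstated unit. Per the file headers, each ChIP-exo border is a 10 bp feature of 1 strand with a count of tags and the authors' RPM. Replicates were pooled within each list per the labels, so the design allows no test between animals.

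Peaks were paired one to one at an overlap of at least 1 bp. The RPM of all borders within 100 bp of a peak centre (the WT centre at shared regions) was summed, and ratios were taken where both libraries had a border, without a pseudocount. Border distance is the position of the strongest minus-strand border less that of the strongest plus-strand border. Shares have Wilson 95% intervals, differences of shares Newcombe intervals or, at the same regions, intervals of a paired difference, and medians an interval over regions. They cover counting only: peaks are not replicates, and tags without molecular identifiers are not independent molecules. C/EBPβ is the WT 6pm list.

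Named regions are the 6 highest-scoring peaks of each one-genotype class and the 5 shared regions with the highest mean rank. The 5 largest losses and 5 largest gains of rank in GRdim follow, with the higher-ranked peak in the top 20% of its list. The last are the 4 lowest and 4 highest ChIP-exo ratios among shared regions with at least 200 tags in the libraries together. Regions, rules and comparisons were chosen with earlier results of these data known. Planned shares of motifs and of genes near peaks were left out, since neither sequence nor annotation of mm9 was used here. Regions are therefore given without genes. Input and RNA polymerase II samples were not analysed here. Matching by centres within 100 or 1000 bp, the higher-scoring 50% of each list, lists of equal length, borders within 60 bp, the strongest border only, a minimum of 20 tags and another scaling were tried as alternatives. The scaling to listed nuclear tags, the matching settings for absent shares and other lists, and the split of border distances by score were added after seeing the data. The code was tested on simulated data. The tools were matplotlib 3.10.9, scipy 1.17.1, pandas 2.3.3 and numpy 2.4.6 under Python 3.11.15.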

Additional observations from a re-analysis of the deposited data

Results flagged for a closer look

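A signal lay outside the ChIP-seq peaks: borders on the mitochondrial genome held 195155 tags in the GRdim ChIP-exo file and 73430 tags in the WT file. These were 28.9% of the listed GRdim tags, over 846 borders, and 5.21% of the listed WT tags, over 848 borders. No ChIP-seq peak lay on that genome and no comparison used these borders, but they enter the total of listed tags that serves as an alternative scale. No control sample was analysed here, and the source of the signal was not tested.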

How the results depend on the processing

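No paired analysis was possible because each list is 1 pool of its replicates, and for the same reason no replicate could be left out. Of the alternatives to the leading results, 20 stayed within the 95% counting interval of the reported value and 30 moved outside it. Another 5 turned a direction that the reported value held, counted by the sign of the value alone. The cause was not tested. The share of GRdim peaks found in WT (94.7%) was 93.5% with centres within 100 bp, 96.3% within 1000 bp, 91.3% with the top 50% of each list and 74.8% with lists of equal length. The share of WT peaks found in GRdim (49.4%) was 53.0% within 1000 bp, 47.6% with the top 50% and 74.8% with equal lengths. The absent share of the highest 10% was 1.48% in GRdim with centres within 100 bp and 7.15% in WT within 1000 bp. Spearman's rank correlation of the scores was 0.63 with both peaks in the higher-scoring 50%. The median log2 ChIP-exo ratio of shared regions was -0.76 with the strongest border only, -1.81 with at least 20 tags, 0.17 as a share of listed tags and 0.58 of listed nuclear tags. For WT-only regions it was -0.99 within 60 bp, -0.67, -0.021 and 0.39 under the strongest border and the 2 scalings, and for GRdim-only regions, whose reported interval included 0, -0.18 with the strongest border only, -1.72 with at least 20 tags and 1.18 and 1.59 under the scalings. The difference in border presence was -7.87 points (shared) and -36.1 points (WT-only) within 60 bp. With at least 20 tags it was -36.8 (shared), -21.7 (WT-only) and -0.504 points (GRdim-only, interval -4.31 to 3.29). With at least 20 tags on each border, the 23 to 26 bp share differed by 4.12 points between GRdim and WT, and the 29 to 31 bp share by 9.57 points between WT-only and shared peaks. In 5 equal parts of the WT list from the highest, the C/EBPβ difference (WT-only less shared) was -21.8, -18.9, -10.5, -4.66 and 0.54 points. In the lowest part its interval included 0 (-4.76 to 6.30). The 29 to 31 bp difference between WT-only and shared peaks was 9.92 and 6.29 points in the highest 2 parts. Of named regions, the log2 ratio turned to -0.12 on chromosome 1 at 93333274 and -0.19 at 13427853 with the strongest border only. It turned to 0.52 and 0.94 on chromosome 18 at 75662436, and to 0.41 and 0.83 on chromosome 10 at 87369421, under the 2 scalings. Both scalings divide by totals made largely of peak signal, so a sign under them cannot show a change common to all peaks. Depth limits the weak end: a border absent from a list cannot be told from one below the threshold, and the ChIP-seq depth is unknown here.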

Other observations

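The X chromosome stood apart from the autosomes in the share of WT sites that GRdim listed. Of 111 WT peaks on the X chromosome, 27 were found in GRdim (24.3%), against 7016 of 14159 elsewhere (49.6%), a difference of -25.2 points (-32.3 to -16.4). X peaks were also weaker, with a median WT score of 2.74, against medians of 3.22 to 3.47 on the autosomes, where 45.6% to 53.4% of WT peaks were found. In the highest-scoring 20% of the WT list 5 of 9 X peaks were found, against 88.0% elsewhere, a difference of -32.4 points (-61.3 to -6.83). In each of the next 3 parts of 20% the interval of the difference included 0. In the lowest 20% none of 37 X peaks was found, against 10.4% elsewhere, a difference of -10.4 points (-11.6 to -0.934). The part of the score in the difference was not tested further. Of the 29 GRdim peaks on the X chromosome, 93.1% were found in WT.

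Outside the ChIP-seq peaks, 6380 nuclear GRdim borders held 73313 tags and 11128 nuclear WT borders held 164212 tags more than 100 bp from any 6pm peak of either genotype. The borders near a peak held 84.7% of the listed nuclear tags in GRdim and 87.7% in WT.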
